A study of Mus musculus with 9 samples.

Results

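This section describes 43 genes of DNA replication and S phase in blood stem and progenitor cells of the mouse. They were chosen by symbol, for their roles in origin licensing, at the replication fork and in nucleotide supply. The choice was made with earlier results of these data known. All 43 were among the 37882 genes of the deposited table, and all 43 passed the low-value filter that 12926 genes passed. RNA was sequenced from LSK cells, the bone marrow fraction that lacks the lineage markers Mac1, Gr1, B220, CD3e and Ter119 and carries Sca1 and cKit. K36M mice carried rtTA in Rosa26 and H3K36M in Col1a1, K9M mice carried rtTA in Rosa26 and H3K9M in Col1a1, and control mice carried rtTA in Rosa26 alone. Both transgenes encode the histone variant H3.3, with lysine 36 or lysine 9 replaced by methionine, and rtTA is a transcriptional activator that works in the presence of doxycycline. The mice of all groups were 6 to 8 weeks old, had a mixed B6/129 background and drank water with doxycycline at 2 mg/ml and sucrose at 10 mg/ml. Each group had 3 mice and each mouse gave 1 library. An H3.3 transgene without a mutation was in none of the groups, so in comparisons with rtTA the mutation and the mere presence of a transgene cannot be told apart.

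Before S phase, the origin recognition complex, Cdc6 and Cdt1 load the MCM ring, the core of the replicative helicase, onto DNA. At S phase entry, cyclin E with its kinase partner and the Cdc7 kinase with Dbf4 turn the loaded ring into an active helicase with Cdc45 and the GINS complex, and polymerases, clamp, clamp loader and ligase then copy both strands. Most of these genes are transcribed in late G1 and S phase under E2F transcription factors, and in the marrow most stem cells rest while progenitors cycle.

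Promoter stretches of 3 helicase genes are shown here because words known as E2F motifs stand in them. RefSeq promoter windows on GRCm38.p6, 300 bases each from 250 before to 50 after the start site, were matched for 35 of the 43 members. They were searched on both strands for the E2F words TTTCCCGC and TTTGGCGC, whose reverse complements are GCGGGAAA and GCGCCAAA. A word stood in the windows of 10 of these 35 members (28.6%), against 314 of 8630 tested genes with a window (3.64%). Of the other replication genes listed further on, 13 of 56 held one (23.2%). The shorter CCAAT box, read as CCAAT or ATTGG, stood in 21 of the 35 members and in 43.3% of the tested genes with a window. Each stretch runs 100 bases, lies wholly before the start site of its RefSeq window and is written 5′ to 3′ on the strand of the gene, with the E2F word in capitals. They are from chr8:75109314-75109413 on the plus strand (Mcm5), chr1:128359731-128359830 on the minus strand (Mcm6) and chr5:138171995-138172094 on the minus strand (Mcm7).
Mcm5: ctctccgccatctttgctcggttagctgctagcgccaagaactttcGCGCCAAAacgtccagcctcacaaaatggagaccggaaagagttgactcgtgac
Mcm6: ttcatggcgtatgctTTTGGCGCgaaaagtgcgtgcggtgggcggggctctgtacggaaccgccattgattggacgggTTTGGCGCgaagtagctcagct
Mcm7: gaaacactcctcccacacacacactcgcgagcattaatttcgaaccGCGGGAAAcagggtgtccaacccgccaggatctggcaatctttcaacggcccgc
Mcm6 held the word at 2 places and Mcm5 and Mcm7 at 1 each. Mcm7 had 2 RefSeq windows, of which 1 held the word. In the GENCODE M21 annotation Mcm7 spans 138164583 to 138172422 on the minus strand, so the printed stretch lies inside that gene. The Mcm3 window held the word at 2 places after the start site, and the Mcm2 window held none. A match is a description of these letters and shows no binding.

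The libraries held about 15870000 (K9M 3) to 50330000 (K36M 3) reads, as read from the lowest RPKM steps, a ratio of 3.17. RPKM divides read counts by transcript length and by library size, so levels can be compared between genes. The smallest estimated read count of a member, that of Ccne1 in K9M 3, was about 164 reads, so member levels were not near the counting limit. The sort markers were present in every library, with Kit at 53.3 to 74.2 RPKM in K36M, 81.1 to 92.0 in K9M and 88.1 to 102.5 in rtTA cells, and Ly6a, the Sca1 gene, at 118.8 RPKM or more throughout. The T cell marker Cd3e stood at 0.168 RPKM or less in every library and at 0 in K9M 2 and 3. Of the 9 T and NK markers listed, 2 passed the low-value filter, Lck at 6.64 to 15.1 RPKM and Cd4 at 1.30 to 2.73 RPKM. Lck had a log2 fold change of -0.04 in K36M against rtTA and 0.58 in K9M against rtTA (limma adjusted p = 0.548). Cd4 had 0.64 (limma adjusted p = 0.0905) and 0.23. H3f3a, to which reads of an H3.3 transgene may align, was higher in K36M than in rtTA by a log2 fold change of 1.04 (limma adjusted p = 0.0141) and in K9M by 0.43 (limma adjusted p = 0.509). Across the 12926 tested genes, the mean of log2(RPKM + 0.5) lay between 3.24 and 3.29 in all 9 libraries.

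The members were expressed at very different levels. By mean RPKM over the 9 libraries, Pcna, the sliding clamp that holds polymerases on DNA, was highest at 252 RPKM, followed by the helicase subunit gene Mcm6 at 196 RPKM and the clamp loader gene Rfc2 at 141 RPKM. The lowest were Orc1, an ATPase subunit of the origin recognition complex, at 4.48 RPKM, Ccne1, which encodes cyclin E1, at 6.28 RPKM and Dbf4, which activates Cdc7, at 6.90 RPKM. Pcna, Mcm6 and Rfc2 thus stood well above Orc1, Ccne1 and Dbf4. This did not hold for whole roles, since the loader gene Rfc3 had 11.9 RPKM and the licensing gene Cdt1 52.1 RPKM.

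**Figure D1:**
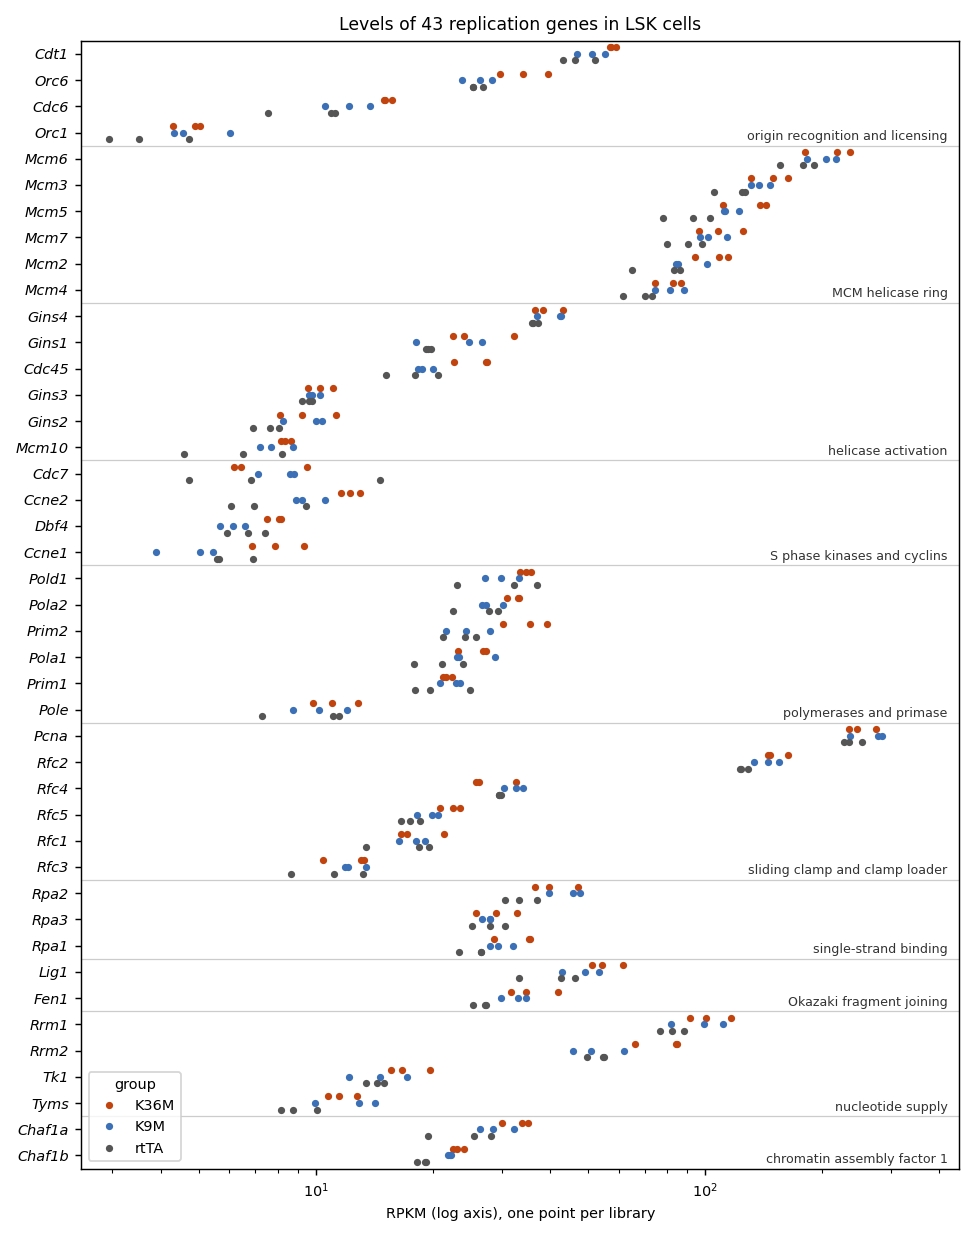
RPKM (log axis) of the 43 members in every library, grouped by role, with 1 point per library for K36M (orange), K9M (blue) and rtTA (grey). Pcna and Mcm6 lie at the high end and Orc1 at the low end, and the 3 groups differ far less within a gene than the genes differ from each other.

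In K36M against rtTA cells the replication genes stood slightly higher in K36M nearly throughout, but none passed the test. Of the 43 members, 41 had a positive log2 fold change, against 52.3% of all tested genes. Their median was 0.30, beside 0.02 for all tested genes, and the values ran from -0.11 (Cdc7) to 0.70 (Ccne2). limma called 0 of the 43 at an adjusted p under 0.05, where 1.50% of all tested genes were called (194 genes, or 301 with the replicate number as a block). The smallest adjusted p of a member was 0.0637, for Ccne2. At an unadjusted p under 0.05 there were 25 members, all higher in K36M, against 10.2% of tested genes that were higher by this rule. For 25 members all 3 K36M libraries lay above all 3 rtTA libraries, against 11.6% of tested genes. No member showed the reverse, which 1375 of the 12926 tested genes did.

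In K9M against rtTA cells the differences were smaller. The median log2 fold change of the members was 0.20, beside 0.01 for all tested genes, and 38 of 43 were positive, against 51.3% of all tested genes. limma called 0 members, where 0.116% of tested genes were called, and the smallest adjusted p of a member was 0.509, for Rpa2. At an unadjusted p under 0.05 there were 7 members, all higher in K9M, against 7.11% of tested genes in either direction. All 3 K9M libraries lay above all 3 rtTA libraries for 10 members, against 7.09% of tested genes, and below them for 1, Ccne1, against 5.43%. The comparisons of K36M and of K9M with rtTA share the 3 rtTA libraries, so they are not independent of each other.

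Set against K9M, the K36M cells had a median member fold change of 0.09 on the log2 scale, beside 0.01 for all tested genes, with 33 of 43 positive against 51.1%. limma called 0 members, where 2.52% of tested genes were called. At an unadjusted p under 0.05 there were 6 members, Ccne1, Rrm2, Prim2, Cdc45, Orc6 and Dbf4, all higher in K36M, against 9.31% of tested genes. The K36M libraries lay wholly above the K9M libraries for 13 members, against 14.5% of tested genes. They lay wholly below for no member, against 1729 of the 12926 tested genes. The median moved to 0.05 without K36M 1, to 0.17 without K36M 2 and to 0.18 without K9M 2.

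**Figure D2:**
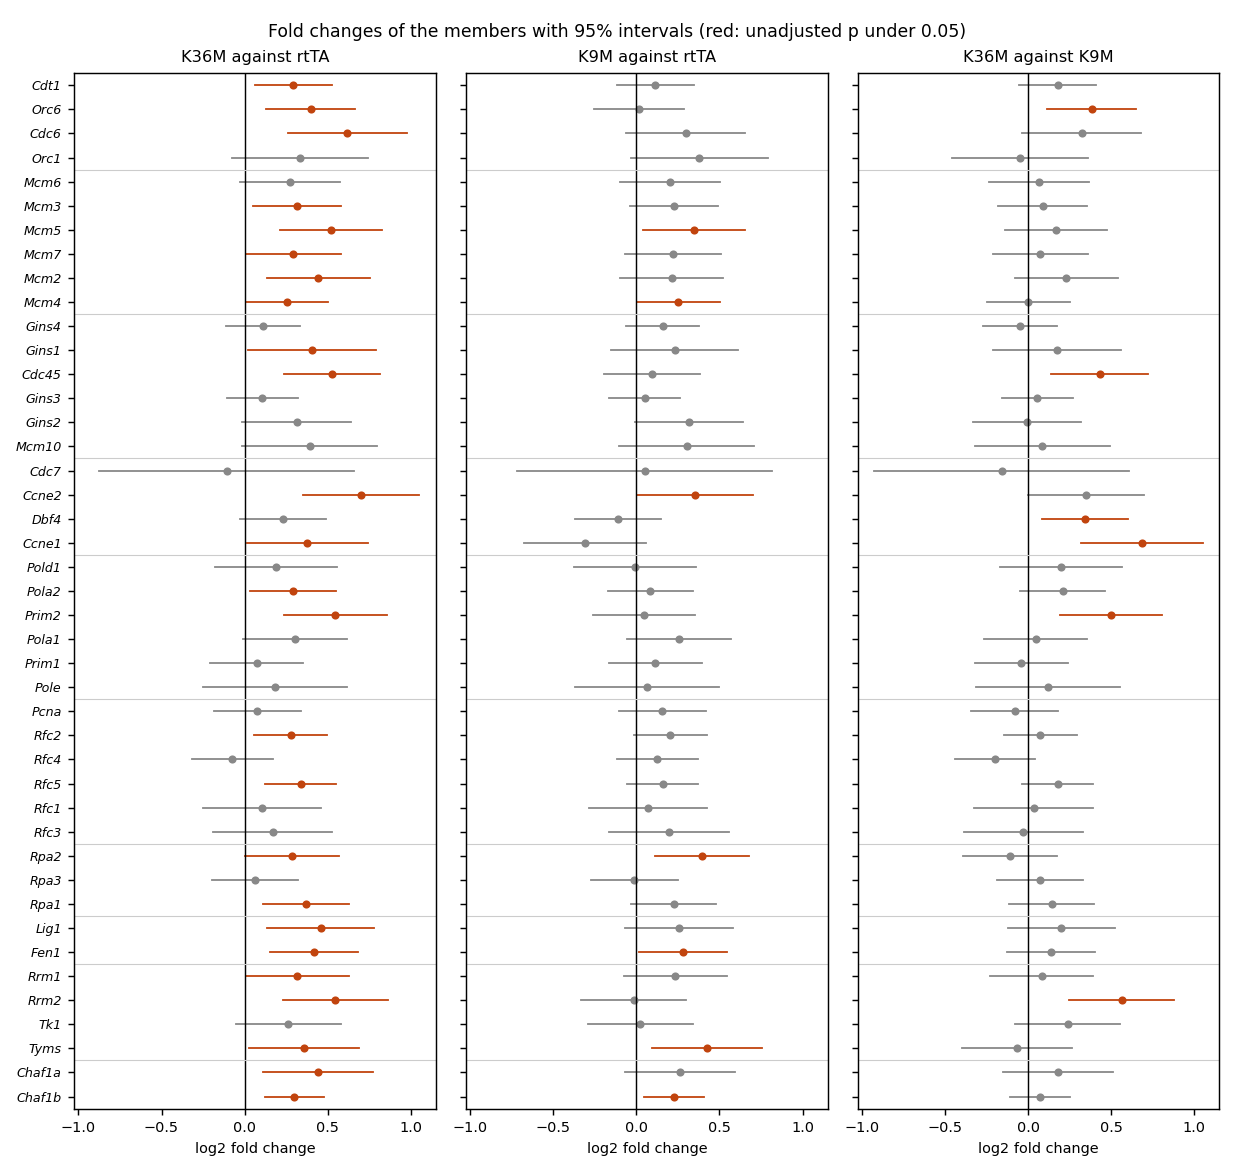
Log2 fold change of each member with its 95% interval in K36M against rtTA, K9M against rtTA and K36M against K9M, ordered by role. Red marks an unadjusted p under 0.05, which 25, 7 and 6 members reached, and no member had an adjusted p under 0.05.

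Among the licensing genes, Cdc6, the loader that brings the MCM ring to origins, showed the largest difference between K36M and rtTA. Cdc6 (ENSMUSG00000017499, mm10 chromosome 11, 98907801 to 98923940) had 15.0, 15.1 and 15.7 RPKM in K36M, 10.6, 13.8 and 12.2 RPKM in K9M, and 7.55, 11.2 and 11.0 RPKM in rtTA libraries. Every K36M library lay above every K9M and rtTA library, while K9M and rtTA overlapped. The Cdc6 log2 fold change was 0.62 in K36M against rtTA (SE 0.16, limma adjusted p = 0.0931) and 0.30 in K9M against rtTA (limma adjusted p = 0.747). Orc1 had 4.90, 4.30 and 5.04 RPKM in K36M, 4.31, 6.02 and 4.56 RPKM in K9M, and 2.94, 4.71 and 3.52 RPKM in rtTA libraries. Its groups overlapped in each comparison, with rtTA 1 lowest and K9M 2 highest. Orc6, another subunit of the origin recognition complex, had 39.5, 34.0 and 29.8 RPKM in K36M, 26.5, 23.8 and 28.3 RPKM in K9M, and 25.4, 26.9 and 25.3 RPKM in rtTA libraries. K36M lay above both other groups, by 0.38 against K9M and 0.40 against rtTA on the log2 scale (limma adjusted p = 0.129 for each), and K9M and rtTA stood together. Exons of Vps35, on the opposite strand, lie over 6.9% of the Orc6 exon bases. Vps35 averaged 52.1 RPKM and had 0.20 in K36M against rtTA. Cdt1, the partner of Cdc6 in loading, had a log2 fold change of 0.29 in K36M against rtTA with groups that did not overlap. Summed over the 4 licensing genes, the level was 109.7 to 116.4 RPKM in K36M, 88.18 to 99.02 RPKM in K9M and 79.08 to 95.04 RPKM in rtTA libraries.

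The 6 MCM genes encode the subunits of one ring and varied together. Their summed RPKM was 862, 688 and 812 in K36M, 722, 789 and 681 in K9M, and 546, 646 and 669 in rtTA libraries, so that each transgenic library lay above each rtTA library while K36M and K9M overlapped. All 6 had positive log2 fold changes in K36M against rtTA, from 0.26 (Mcm4) to 0.52 (Mcm5), and in K9M against rtTA, from 0.20 (Mcm6) to 0.35 (Mcm5). Mcm5 (ENSMUSG00000005410, mm10 chromosome 8, 75109569 to 75128439) had 143, 111 and 138 RPKM in K36M, 113, 122 and 112 RPKM in K9M, and 78.1, 92.9 and 103 RPKM in rtTA libraries. Neither transgenic group overlapped rtTA, and K36M overlapped K9M. The Mcm5 log2 fold change was 0.52 in K36M against rtTA (SE 0.14, limma adjusted p = 0.0991) and 0.35 in K9M against rtTA (SE 0.14, limma adjusted p = 0.646). Of the MCM genes with an E2F word in a window, Mcm5 had 0.52, Mcm3 0.31, Mcm7 0.29 and Mcm6 0.27 in K36M against rtTA. Mcm2, with no E2F word in its window, had 0.44, and no window was matched for Mcm4. Whether the words and the fold changes are linked was not tested. In K36M against K9M the MCM fold changes ran only from 0.00 to 0.23.

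Of the helicase activators, Cdc45, which joins the ring when an origin fires, stood out in K36M. Cdc45 (ENSMUSG00000000028, mm10 chromosome 16, 18780447 to 18811987) had 27.4, 22.7 and 27.5 RPKM in K36M, 18.8, 20.0 and 18.3 RPKM in K9M, and 15.2, 20.6 and 17.9 RPKM in rtTA libraries. K36M lay above both other groups, and the K9M values fell inside the rtTA range. The log2 fold change was 0.52 in K36M against rtTA (SE 0.13, limma adjusted p = 0.0865), 0.09 in K9M against rtTA (limma adjusted p = 0.901) and 0.43 in K36M against K9M (limma adjusted p = 0.117). Gins2, a subunit of the GINS complex, had 11.3, 8.09 and 9.24 RPKM in K36M, 10.4, 10.0 and 8.22 RPKM in K9M, and 8.06, 6.88 and 7.65 RPKM in rtTA libraries. Both transgenic groups lay just above rtTA and overlapped each other. The annotation places exons of Gse1, on the opposite strand, over 67.3% of the Gins2 exon bases, and whether the counting used strand is not given in the sources used here. Gse1 averaged 19.4 RPKM and had 0.15 in K36M and -0.19 in K9M against rtTA. Gins1 had a log2 fold change of 0.41 in K36M against rtTA, whereas Gins3 and Gins4 had 0.10 and 0.11. Mcm10, which binds the active helicase, had 0.39, with groups that overlapped.

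The cyclin E genes included the highest fold change of the set in K36M against rtTA and the lowest in K9M against rtTA. Ccne2 (ENSMUSG00000028212, mm10 chromosome 4, 11191351 to 11204779), which encodes cyclin E2, had 13.0, 11.6 and 12.2 RPKM in K36M, 9.24, 10.6 and 8.91 RPKM in K9M, and 6.05, 9.46 and 6.96 RPKM in rtTA libraries. K36M lay above both other groups, and K9M overlapped rtTA through rtTA 2. Its log2 fold change was 0.70 in K36M against rtTA (SE 0.15, limma adjusted p = 0.0637), a ratio of 1.63, and 0.35 in K9M against rtTA (limma adjusted p = 0.701). Exons of Ints8, on the opposite strand, lie over 17.4% of the Ccne2 exon bases. Ints8 averaged 6.28 RPKM and had 0.14 in K36M against rtTA. Ccne1 (ENSMUSG00000002068, mm10 chromosome 7, 38097984 to 38107534) had 9.34, 7.85 and 6.85 RPKM in K36M, 5.04, 5.46 and 3.89 RPKM in K9M, and 5.65, 6.89 and 5.56 RPKM in rtTA libraries. All K9M libraries lay below all rtTA libraries, and K36M overlapped rtTA and lay above K9M. The Ccne1 log2 fold change was -0.31 in K9M against rtTA (SE 0.16, limma adjusted p = 0.741) and 0.69 in K36M against K9M (SE 0.16, limma adjusted p = 0.0616), the highest of any member there. Dbf4 had 7.49, 8.04 and 8.16 RPKM in K36M, 6.14, 6.56 and 5.68 RPKM in K9M, and 5.91, 7.42 and 6.69 RPKM in rtTA libraries. Its K36M values lay above both other groups, narrowly so against rtTA. Cdc7, the kinase that Dbf4 activates, had 6.16, 9.48 and 6.43 RPKM in K36M, 7.11, 8.79 and 8.56 RPKM in K9M, and 4.72, 14.6 and 6.83 RPKM in rtTA libraries. The rtTA libraries held both its lowest and its highest value, and its interval in K36M against rtTA, from -0.88 to 0.66 on the log2 scale, was the widest of the set. Its log2 fold change of -0.11 there became 0.32 without rtTA 2, and in K9M against rtTA it was 0.05 with all libraries and -0.287 without rtTA 1.

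**Figure D3:**
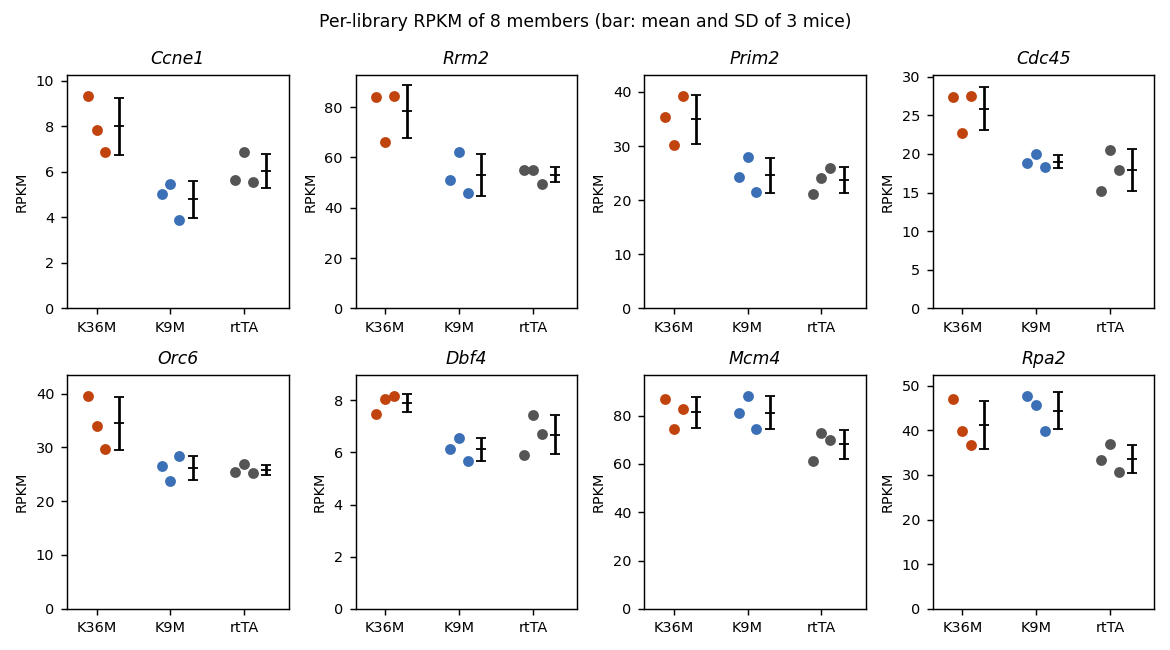
RPKM of 8 members in each of the 3 libraries of K36M, K9M and rtTA (points), with the mean and SD of 3 mice as bars. For Ccne1, Rrm2, Prim2, Cdc45, Orc6 and Dbf4 every K36M library lies above every K9M library, and for Mcm4 and Rpa2 K36M and K9M overlap. The first 6 named are the members with an unadjusted p under 0.05 in K36M against K9M, picked after values were seen. Their separation follows in part from that choice. Of all tested genes, 14.5% separated in this direction, and limma called no member.

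The polymerase and primase genes split. Prim2 (ENSMUSG00000026134, mm10 chromosome 1, 33453810 to 33669795), the large primase subunit that helps lay down RNA primers, had 35.4, 30.2 and 39.3 RPKM in K36M, 24.3, 28.0 and 21.5 RPKM in K9M, and 21.2, 24.1 and 25.9 RPKM in rtTA libraries. K36M lay above both other groups, which overlapped. Its log2 fold change was 0.55 in K36M against rtTA (SE 0.14, limma adjusted p = 0.0896) and 0.50 in K36M against K9M (SE 0.14, limma adjusted p = 0.0915), against 0.05 in K9M against rtTA. Prim1, the catalytic primase subunit, had 0.07 in K36M against rtTA, with a 95% interval from -0.21 to 0.35. Pola1, the catalytic subunit of polymerase alpha, had 26.8, 23.2 and 27.4 RPKM in K36M, 23.0, 28.9 and 23.3 RPKM in K9M, and 17.9, 21.1 and 23.9 RPKM in rtTA libraries, with overlap between all groups. Pold1 and Pole, the catalytic subunits of the polymerases that copy the lagging and the leading strand, had 0.19 and 0.18 in K36M against rtTA, with intervals that reach below 0 and groups that overlapped.

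The clamp and clamp loader genes had the lowest median of the 10 roles in K36M against rtTA, 0.14 on the log2 scale. Pcna had 275, 246 and 234 RPKM in K36M, 285, 278 and 236 RPKM in K9M, and 234, 253 and 228 RPKM in rtTA libraries, and all groups overlapped. Its log2 fold change in K36M against rtTA was 0.08, with a 95% interval from -0.19 to 0.34, so a difference of the size seen for Cdc6 or Ccne2 lies outside that interval. Rfc5 had 23.4, 20.8 and 22.5 RPKM in K36M, 19.9, 20.6 and 18.2 RPKM in K9M, and 16.6, 18.5 and 17.4 RPKM in rtTA libraries. Here K36M lay above both other groups, with a log2 fold change against rtTA of 0.34 (SE 0.09, limma adjusted p = 0.113). Rfc2 had 164, 147 and 146 RPKM in K36M, 155, 145 and 133 RPKM in K9M, and 123, 129 and 124 RPKM in rtTA libraries, both transgenic groups lying above rtTA. The annotation has Lat2 on the opposite strand over 15.1% of the Rfc2 exon bases, and Lat2 itself had 0.40 in K36M against rtTA. Rfc1, the large loader subunit, Rfc3 and Rfc4 had 0.10, 0.17 and -0.07 in K36M against rtTA, and their groups overlapped. Exons of Eif4a2, on the opposite strand, lie over 12.7% of the Rfc4 exon bases. Eif4a2 averaged 62.1 RPKM and had -0.39 in K36M and -0.32 in K9M against rtTA.

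Among the subunits of RPA, which coats single-stranded DNA, the K9M cells showed their smallest adjusted p of the set. Rpa2 had 47.1, 39.8 and 36.6 RPKM in K36M, 47.6, 45.7 and 39.7 RPKM in K9M, and 33.2, 36.9 and 30.6 RPKM in rtTA libraries. All K9M libraries lay above all rtTA libraries, and K36M overlapped rtTA by its lowest library. The Rpa2 log2 fold change was 0.40 in K9M against rtTA (SE 0.13, limma adjusted p = 0.509) and 0.29 in K36M against rtTA (SE 0.13, limma adjusted p = 0.256). Rpa1 had 35.2, 28.7 and 35.5 RPKM in K36M, 29.3, 32.1 and 28.1 RPKM in K9M, and 23.3, 26.6 and 26.6 RPKM in rtTA libraries, with both transgenic groups above rtTA. Rpa3 had 0.06 in K36M against rtTA and -0.01 in K9M against rtTA, and its groups overlapped.

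Fen1, the flap nuclease that trims Okazaki fragments, had 41.8, 31.7 and 34.7 RPKM in K36M, 33.0, 34.8 and 29.9 RPKM in K9M, and 27.2, 27.4 and 25.4 RPKM in rtTA libraries. Neither transgenic group overlapped rtTA. The Fen1 log2 fold change was 0.42 in K36M against rtTA (SE 0.12, limma adjusted p = 0.111) and 0.28 in K9M against rtTA (SE 0.12, limma adjusted p = 0.689). An antisense gene, Gm10143, covers 78.8% of the Fen1 exon bases and averaged 0.15 RPKM. Lig1, the ligase that seals the fragments, had 0.46 in K36M against rtTA with groups that did not overlap, and 0.26 in K9M against rtTA with groups that did.

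In nucleotide supply the subunits of ribonucleotide reductase, which makes deoxynucleotides, differed from each other. Rrm2 (ENSMUSG00000020649, mm10 chromosome 12, 24708241 to 24714146), the subunit whose level is known to follow the cell cycle, had 84.1, 66.2 and 84.5 RPKM in K36M, 50.9, 62.0 and 45.8 RPKM in K9M, and 55.0, 54.8 and 49.6 RPKM in rtTA libraries. K36M lay above both other groups, and K9M spanned the rtTA range. The Rrm2 log2 fold change was 0.55 in K36M against rtTA (SE 0.14, limma adjusted p = 0.0924), -0.02 in K9M against rtTA and 0.56 in K36M against K9M (SE 0.14, limma adjusted p = 0.0707). Rrm1, the large subunit, had 0.32 in K36M against rtTA and 0.23 in K9M against rtTA. Tyms, which makes thymidylate, had 12.7, 11.5 and 10.7 RPKM in K36M, 12.9, 14.2 and 9.93 RPKM in K9M, and 8.76, 10.1 and 8.15 RPKM in rtTA libraries. K36M lay above rtTA, and K9M overlapped rtTA by its lowest library although its log2 fold change there, 0.42, was the largest of the 43 (SE 0.15, limma adjusted p = 0.557). Tk1, the thymidine salvage kinase, had 0.26 in K36M against rtTA and 0.02 in K9M against rtTA.

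Chromatin assembly factor 1 places new histone H3.1 and H4 on copied DNA. Chaf1b had 24.1, 23.1 and 22.6 RPKM in K36M, 22.1, 21.9 and 22.2 RPKM in K9M, and 18.2, 19.0 and 19.2 RPKM in rtTA libraries. The 3 groups did not overlap in any comparison, with K36M highest and rtTA lowest. Its log2 fold change was 0.30 in K36M against rtTA (SE 0.08, limma adjusted p = 0.101) and 0.23 in K9M against rtTA (SE 0.08, limma adjusted p = 0.573). Chaf1a had 0.44 in K36M against rtTA, with groups that did not overlap, and 52.5% of its exon bases lie opposite Ubxn6.

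The mice of 1 group differed among themselves in the same direction for most members. The mean of log2(RPKM + 0.5) over the 43 was 5.06, 4.89 and 4.96 in the K36M libraries (replicates 1 to 3), 4.82, 4.94 and 4.74 in the K9M libraries, and 4.51, 4.80 and 4.69 in the rtTA libraries. The K36M means lay above all rtTA means, and K9M overlapped both other groups. rtTA 1 was the lowest of the 9 libraries for 30 members, and K36M 1 was the highest for 21. Within groups, K36M 1 was the highest for 29 members, K9M 2 for 31 and rtTA 2 for 29. Without rtTA 1, in K36M against rtTA 37 members were positive with a median of 0.23, and 15 had an unadjusted p under 0.05, where the full set of libraries gave 25. In K9M against rtTA without rtTA 1, 33 were positive with a median of 0.12, and 3 had an unadjusted p under 0.05, where the full set gave 7. That count was 1 without K9M 1, 2 without K9M 2 and 4 without rtTA 3 or K36M 3, and the median without K9M 2 was 0.14. Without K36M 1, 15 members had an unadjusted p under 0.05 in K36M against rtTA, with a median of 0.27.

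**Figure D4:**
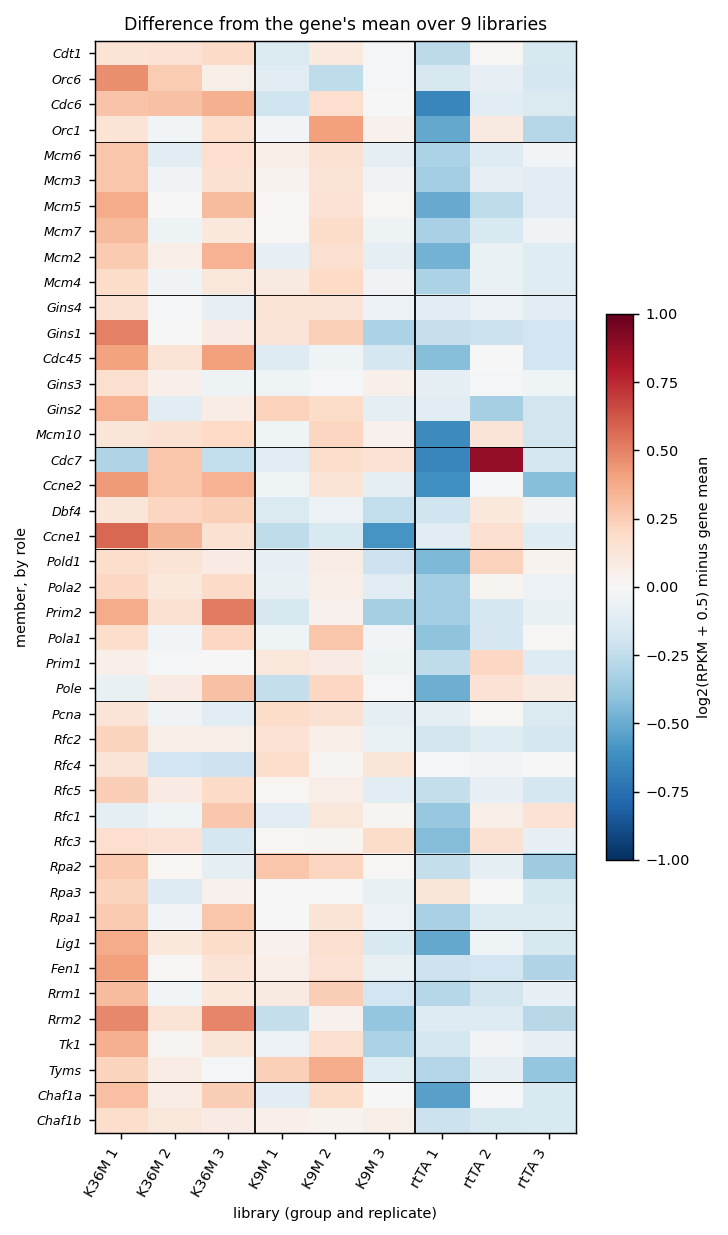
Difference of log2(RPKM + 0.5) from the gene's mean over the 9 libraries, for 43 members (rows, by role) and 9 libraries (columns, by group). The column of rtTA 1 is the lowest for 30 members, and the Cdc7 row has its highest value in rtTA 2.

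**Figure D5:**
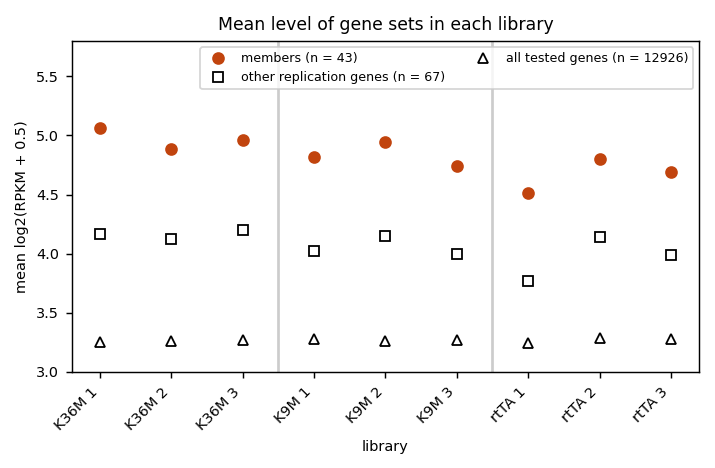
Mean log2(RPKM + 0.5) in each library of the 43 members (circles), 67 other replication genes (squares) and 12926 tested genes (triangles). The members lie highest in K36M 1 at 5.06 and lowest in rtTA 1 at 4.51, while the mean of all tested genes stays between 3.24 and 3.29.

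Levels of other gene lists are given beside these values. Of 10 immediate early genes, which respond to cell handling and stimulation, limma called 8 lower in K36M than in rtTA, against 120 of 12926 tested genes. The summed level of the 10 was 485 to 802 RPKM in K36M, 761 to 887 RPKM in K9M and 1555 to 1718 RPKM in rtTA libraries. The 10 LSK sort and stem cell markers summed to 668 to 678 RPKM in K36M, 803 to 909 RPKM in K9M and 719 to 979 RPKM in rtTA libraries. In K36M against rtTA limma called 0 of them. With an unadjusted p under 0.05, 2 were higher and 5 lower in K36M, against 10.2% and 8.86% of tested genes. The K9M sums of these 10 markers lay inside the rtTA range, and their K36M sums lay below both other groups. The 12 granulocyte markers summed to 1275 to 3658 RPKM in K36M, 1327 to 1742 RPKM in K9M and 1508 to 7542 RPKM in rtTA libraries, the last value from rtTA 3, and the sums of all groups overlapped. Of these markers limma called Ltf, a granule protein gene, lower in K36M against rtTA (-4.01, adjusted p = 0.0370). With an unadjusted p under 0.05 there were 4 higher (Elane 1.74, Prtn3 1.46, Ctsg 1.23 and Mpo 0.96 on the log2 scale, all genes of primary granule proteins) and 8 lower, against 10.2% and 8.86% of tested genes. Against K9M, limma called Prtn3 higher in K36M (2.02, adjusted p = 0.0433). The 9 monocyte and macrophage markers summed to 123 to 358 RPKM in K36M, 43.3 to 90.3 RPKM in K9M and 70.8 to 228 RPKM in rtTA libraries, so that K36M lay above K9M and overlapped rtTA. limma called Cd68 lower in K36M against rtTA (-1.34, adjusted p = 0.0428) and Cx3cr1 higher in K36M against K9M (2.15, adjusted p = 0.0328). The 10 erythroid markers, with 1 of 9 tested called higher in K36M against rtTA, summed to 197 to 336 RPKM in K36M, 165 to 253 RPKM in K9M and 97.1 to 168 RPKM in rtTA libraries. The called gene was the globin gene Hbb-bt (3.64, limma adjusted p = 0.0267), which made up much of the K36M sums. It reached 206.1 RPKM in K36M and 14.39 RPKM in rtTA libraries. Of the other tested erythroid markers, only Klf1 (0.67) had K36M and rtTA groups that did not overlap. Car1 (-0.57) and Hba-a1 (-0.10) were lower in K36M. The 10 B lineage markers summed to 33.3 to 42.9 RPKM in K36M, 21.6 to 28.0 RPKM in K9M and 46.1 to 63.8 RPKM in rtTA libraries, with 0 called by limma in either comparison with rtTA. With an unadjusted p under 0.05, 4 of the 8 tested were lower than rtTA in K36M and 7 in K9M. Among the 12926 tested genes, 1145 were lower in K36M and 402 in K9M by this rule. None of these lists held a marker at 0 in any library. Their part in the values of the replication genes was not tested. In bulk RNA, a different number of cells in S phase and a different amount of RNA per cell cannot be told apart.

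Beyond the 43, a list of 67 other replication genes was read in the same fits. In K36M against rtTA, 56 of the 67 had a positive log2 fold change with a median of 0.27, and limma called none, with 20 higher and 3 lower at an unadjusted p under 0.05, against 10.2% and 8.86% of tested genes. The smallest p there belonged to Asf1b, a chaperone that hands histones to the assembly factors (0.47, limma adjusted p = 0.0865), Tfdp2, a dimer partner of the E2F factors (-0.64, limma adjusted p = 0.1003), and Ctps, which makes CTP (0.52, limma adjusted p = 0.113). In K9M against rtTA, 48 were positive with a median of 0.12, and limma called none, with 5 at an unadjusted p under 0.05, all higher in K9M, against 7.11% of tested genes in either direction. Shmt1, an enzyme of one-carbon metabolism, had 0.44 (limma adjusted p = 0.446) and Tipin, a fork protection factor, had 0.31.

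In K36M against K9M, limma called 1 of the 67, against 2.52% of all tested genes. It was Asf1b, which was higher in K36M. Asf1b had 23.63, 21.02 and 22.72 RPKM in K36M, 15.10, 17.11 and 12.89 RPKM in K9M, and 16.48, 16.60 and 15.07 RPKM in rtTA libraries. Every K36M library lay above every other library, and K9M overlapped rtTA. Its log2 fold change was 0.57 in K36M against K9M (SE 0.12, limma adjusted p = 0.0415). Next came Tfdp2, with 5.95, 7.91 and 8.83 RPKM in K36M, 12.7, 14.3 and 11.9 RPKM in K9M, and 10.5, 11.1 and 14.5 RPKM in rtTA libraries, all K36M values lying below the rest (-0.75 against K9M, limma adjusted p = 0.0537). Tfdp2 was called with RPKM of at least 1 in all libraries, with median centring, with quantile normalization, with the replicate block and with library weights, and its limma adjusted p ran from 0.0349 to 0.159 over all alternatives. Mcmbp, which binds MCM subunits, had 0.37 (limma adjusted p = 0.138). Over the list, 44 of the 67 were positive with a median of 0.11, and 8 were higher and 1 lower at an unadjusted p under 0.05, against 9.31% and 9.48% of tested genes. The Asf1b call ended without K36M 1 or 3, without any K9M library, without rtTA 2 or 3, with no low-value filter, with median centring, with only K36M and K9M in the fit and without the variance trend, and its adjusted p ran from 0.0326 to 0.145 over all alternatives.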

How the data were processed

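The authors deposited 1 table of RPKM values, with 37882 genes in rows and 9 libraries in columns. The submitters' processing notes name CASAVA 1.7, STAR and mm10. Annotation, strand use, the STAR version and the treatment of reads with several matches: not given in the sources used here. Per the labels, the molecule was poly-A RNA and the cDNA came from a total RNA kit. Depth was estimated from the steps of the lowest RPKM values. Between 50.4% and 52.0% of the low values came out as whole reads within 0.02, so the estimate is approximate and no count model was fitted.

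Groups and replicate numbers came from the sample titles. A gene was tested where RPKM reached 1 in 3 or more libraries, which left 12926 genes, on the log2 of RPKM plus a pseudocount of 0.5. Low genes therefore have understated fold changes. A limma 3.58.1 model (R 4.3.3) with 3 group means, eBayes and a variance trend used all 9 libraries together, with 6 residual degrees of freedom. Two-sided p-values were adjusted by Benjamini-Hochberg over the 12926 genes, and a gene counts as called at an adjusted p under 0.05. The fit was tested on simulated data. Coordinates are those of GENCODE M21 on mm10, matched by identifier, and promoters were matched by symbol to RefSeq on GRCm38.p6.

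The members and lists were chosen with earlier results of these data known. Values in every library are given, in each role, for the members with the smallest p in K36M against rtTA and in K9M against rtTA, and of the other replication genes for those called. The per-library values of Orc6, Ccne1, Dbf4, Cdc7, Pcna and Tfdp2 were added after values were seen. The result of 1 gene of the other replication list is not reported here.

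Whether replicate numbers pair mice is not stated in the labels. Same-numbered libraries of K36M and rtTA deviated together from their group means, with correlations across genes of 0.414, 0.369 and 0.377, so a block by number applies to that comparison. For K9M and rtTA the values were 0.163, 0.0599 and 0.0174, and for K36M and K9M 0.0741, -0.171 and 0.0529, not all above 0.1. Over the 43 members alone they were 0.735, 0.731 and 0.58 for K36M and rtTA. The members gave 0.741, 0.153 and 0.1415 for K9M and rtTA, and 0.7445, -0.259 and 0.0341 for K36M and K9M. The p-values of the members in the main fit are without a block. The source of this pairing is the data alone. The block was fitted over all 9 libraries and not to K36M and rtTA alone, so it also grouped the K9M libraries by number. Alternatives were other pseudocounts, filters and scalings, library weights, the block, no variance trend, a fit of the compared groups alone, and leaving out each library.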

Additional observations from a re-analysis of the deposited data

How the results depend on the processing

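The members' median log2 fold change kept its sign in every alternative, from 0.23 to 0.38 in K36M against rtTA, 0.11 to 0.24 in K9M against rtTA and 0.05 to 0.18 in K36M against K9M. Precision is limited by 3 mice a group. Genes called in K36M against rtTA were 76 with no filter, 25 with only the 2 groups compared, 301 with the replicate block, and 10 (without K36M replicate 1) to 402 (without K36M replicate 2) with 1 library left out. In K9M against rtTA they were 4 with no filter, 8 with median centring, 8 with quantile normalization, 62 with library weights, and 6 (without K9M replicate 2) to 36 (without rtTA replicate 1) with 1 library left out. In K36M against K9M they were 118 with no filter, 595 with the replicate block, 589 with library weights, and 15 (without K36M replicate 3) to 509 (without K36M replicate 2) with 1 library left out. The cause of these shifts was not tested.

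Members called in K36M against rtTA were 1 with median centring (Ccne2, limma adjusted p = 0.0459) and 0 to 2 with 1 library left out, namely Mcm5 (0.0474) and Rrm2 (0.0461) without K36M replicate 2, and Ccne2 (0.0388) without rtTA replicate 2. Over all alternatives the limma adjusted p ran from 0.0388 to 0.235 for Ccne2, 0.0474 to 0.315 for Mcm5 and 0.0461 to 0.303 for Rrm2. In K36M against K9M, 1 member was called with the replicate block (Ccne1, limma adjusted p = 0.0348), 1 with library weights (Ccne1, 0.0425), and 0 to 1 with 1 library left out (Rrm2, 0.0382, without K36M replicate 2), over ranges of 0.0348 to 0.196 for Ccne1 and 0.0382 to 0.233 for Rrm2. Of the other replication genes, 0 were called there with no filter, with only the 2 groups compared or without a variance trend, 2 with RPKM of at least 1 in all libraries, with quantile normalization, with the replicate block or with library weights, and 0 to 1 with 1 library left out. The replicate block changed no other call of a member.

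Some log2 fold changes of single genes turned sign. In K36M against rtTA, Rfc1 was -0.0117 with library weights, and Pcna was -0.0316 and Rpa3 -0.00752 with quantile normalization. In K9M against rtTA, library weights gave -0.0302 for Prim2, 0.0143 for Rrm2, -0.057 for Pole, -0.0483 for Rfc1, 0.0578 for Rpa3, -0.00375 for Tk1 and -0.0182 for Tfdp2, median centring gave 0.00533 for Pold1 and 0.00394 for Rpa3, and quantile normalization gave -0.00741 for Orc6. In K36M against K9M, Mcm4 was -0.00775 with library weights, -0.0156 with median centring and -0.0208 with quantile normalization, which gave -0.0073 for Rfc1.

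With 1 library left out, the widest ranges that crossed 0 belonged to Cdc7, from -0.445 to 0.32 (without rtTA replicate 2) in K36M against rtTA and -0.287 (without rtTA replicate 1) to 0.478 in K9M against rtTA. The other ranges in K36M against rtTA were -0.0266 to 0.204 for Prim1, -0.00292 to 0.336 for Pold1, -0.0163 to 0.297 for Pole, -0.056 to 0.206 for Rfc1 and -0.025 to 0.15 for Rpa3. In K9M against rtTA they were -0.0153 to 0.197 for Cdc45, -0.0479 to 0.137 for Prim2, -0.135 to 0.0811 for Rrm2, -0.0409 to 0.0825 for Orc6, -0.0271 to 0.161 for Pola2, -0.203 to 0.136 for Pold1, -0.135 to 0.179 for Pole, -0.0892 to 0.173 for Rfc1, -0.0836 to 0.0563 for Rpa3, -0.0924 to 0.147 for Tk1, -0.194 to 0.00353 for Asf1b, -0.121 to 0.0019 for Mcmbp and -0.19 to 0.0317 for the difference of the Prim2 to Prim1 ratio. In K36M against K9M they were -0.132 to 0.0864 for Orc1, -0.128 to 0.0995 for Gins2, -0.011 to 0.151 for Pola1, -0.211 to 0.0352 for Tyms, -0.0584 to 0.0643 for Mcm4, -0.0132 to 0.177 for Mcm6, -0.0243 to 0.161 for Mcm7, -0.117 to 0.00251 for Gins4, -0.0796 to 0.101 for Rfc1, -0.0874 to 0.081 for Rfc3, -0.0138 to 0.161 for Rpa3, -0.0362 to 0.181 for Rrm1, -0.139 to 0.0197 for Shmt1 and -0.125 to 0.0663 for Tipin. The cause of these turns was not tested. The ratios and their alternatives were chosen after seeing the data.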

Other observations

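Ratios between subunits or relatives that work together were computed within each library for 7 pairs, chosen after values were seen. In 3 pairs the K36M and rtTA ratios did not overlap, in 2 the K9M and rtTA ratios, and in 4 the K36M and K9M ratios. With 3 libraries against 3, a two-sided exact permutation test cannot go below p = 0.1, which each of these reached, and over the 21 tests the adjusted value was 0.233.

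Cyclin E2 RNA stood above cyclin E1 RNA in every library, and to a different degree by group. The Ccne2 to Ccne1 ratio of RPKM was 1.39, 1.48 and 1.79 in K36M, 1.83, 1.93 and 2.29 in K9M, and 1.07, 1.37 and 1.25 in rtTA libraries. The K9M ratios lay above both other groups and the rtTA ratios below both. The log2 ratio differed by 0.72 between K9M and rtTA and by 0.34 between K36M and rtTA. Exons of Ints8 lie opposite part of Ccne2, and what they add to the ratio was not tested.

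Rrm2 to Rrm1, the small to the large subunit of ribonucleotide reductase, stood at 0.721, 0.722 and 0.838 in K36M, 0.511, 0.559 and 0.559 in K9M, and 0.719, 0.666 and 0.563 in rtTA libraries. K36M lay above rtTA and K9M below it, by margins at the nearest libraries that were small beside the spread within rtTA. Prim2 to Prim1 stood at 1.58, 1.42 and 1.82 in K36M, 1.04, 1.22 and 1.03 in K9M, and 1.18, 0.969 and 1.32 in rtTA libraries, with K36M above both other groups, which overlapped.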
